A study of Mus musculus with 4 samples.

Results

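The genes described here drive the cell cycle and copy the genome: cyclins, cyclin-dependent kinases (CDKs) and their inhibitors, E2F factors and pocket proteins, replication licensing proteins, and markers of mitosis and proliferation. Members were chosen by gene symbol, and 62 of the 54920 genes listed for each library matched. RNA was sequenced from ID4-EGFP+ cells, which had been sorted from dissociated mouse testes at postnatal day 8 because Id4 marks the population enriched for spermatogonial stem cells. There were 2 control and 2 Cnot3-cKO libraries, and 4-OHT, the active form of tamoxifen, had been injected from day 1 to day 3 after birth in both groups. Control mice were Cnot3 flox/flox with Id4-eGfp (the sample labels call them wild-type), and Cnot3-cKO mice carried Ddx4-creER and ID4-EGFP on the same floxed background. Because creER is driven by the germ cell gene Ddx4 and needs the drug, the deletion is limited to germ cells that recombined after the injections, and controls lacked creER altogether. The labels do not say whether the 2 libraries of a group came from separate animals. The study's text calls its replicates biological but gives a number of them that differs from the libraries deposited, so what each library stands for is not settled here. The p-values therefore rest on the spread between these libraries, modeled across genes, and that spread may be technical.

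D-type cyclins with CDK4 or CDK6 and then E-type cyclins with CDK2 phosphorylate the pocket proteins of the retinoblastoma family, which frees activating E2F factors to switch on genes for DNA synthesis. Replication origins are licensed when CDC6 and CDT1 load the MCM2 to MCM7 helicase, and later A- and B-type cyclins with CDK1, switched on by CDC25 phosphatases, drive entry into mitosis until CDC20 and the anaphase-promoting complex destroy them. Spermatogonia of the early postnatal testis are a mitotically active population, and cyclin A1 and several other cell cycle proteins take meiotic roles when germ cells become spermatocytes.

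The targeted gene was examined first. Cnot3, at chr7:3645268-3661109 on the forward strand of GRCm38, had 58.6 and 50.2 CPM in controls 1 and 2 and 19.2 and 19.9 CPM in Cnot3-cKO 1 and 2. Both Cnot3-cKO libraries were far below both controls, in the direction the labels give. The log2 fold change was -1.48 (standard error 0.13, edgeR adjusted p = 1.48e-05). Here and below, CPM is the count scaled to the TMM-adjusted depth of its library, and the p-values come from edgeR's F test, adjusted by Benjamini-Hochberg over 23952 genes. Transcripts of a recombined allele that still yield reads and transcripts of intact alleles cannot be told apart in counts per gene. Library totals were 40957899 and 43378493 reads in controls 1 and 2 and 22192964 and 28019626 reads in Cnot3-cKO 1 and 2. The 62 members took 0.795% and 0.858% of the reads in the controls and 0.955% and 0.938% in the Cnot3-cKO libraries. Every member passed the expression filter, and the lowest count of a member in a library was 38 reads, well above a floor of 3 reads. Permuting the labels of 2 and 2 libraries exactly gives no two-sided p smaller than 0.333 for any gene, so these p-values rest on the dispersion model fitted across genes.

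Members moved in both directions, and all but 3 had an estimated change of less than 2-fold. Cdc25b was the 1 member that rose, and Cdk6 and E2f2 were the 2 that fell, more than 2-fold with an adjusted p under 0.01. These were 1.61% and 3.23% of the members, while 4.03% of all 23952 tested genes rose and 0.735% fell by the same rule. At an adjusted p under 0.05 without a fold limit, 10 members (16.1%) were higher and 12 (19.4%) were lower, and 40 passed in neither direction. Over all tested genes the shares were 11.1% higher and 9.46% lower. The 2 Cnot3-cKO values were both above the 2 control values in 22 members (35.5%, against 30.5% of all tested genes) and both below them in 21 (33.9%, against 28.6%), and in the other 19 the groups overlapped. The median log2 fold change was 0.02 over the members and 0.01 over all tested genes. Higher members were mitotic cyclins, mitotic regulators, Cdc25b, Rbl2 and Mcm10, while lower members were kinases of the G1 phase, Ccne1, Cdc25a, Rb1 and 6 E2F factors.

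The balance of higher and lower calls depended on how libraries were scaled, for all genes as for the members. Scaling each library to 11 pan-germ cell genes gave 20 members higher and 4 lower (Cdk6, E2f2, E2f4 and E2f8), and scaling to library size alone gave 19 higher and 9 lower. Over all tested genes the calls went from 2659 higher and 2266 lower to 3533 and 1015 with pan-germ cell genes and to 3112 and 1717 with library size. The share of called members that were higher was 45.5% with TMM, 67.9% with library size and 83.3% with pan-germ cell genes, and over all called genes it was 54.0%, 64.4% and 77.7%. Pan-germ cell scaling shifted the median log2 fold change of all tested genes from 0.01 to 0.15 and that of the members to 0.16. Leaving out Cnot3-cKO 1 left 4 members higher and 6 lower, and leaving out Cnot3-cKO 2 left 7 higher and 5 lower. Without control 1 there were 11 higher and 18 lower, and without control 2 there were 19 higher and 10 lower. Over all tested genes the fits without control 1, control 2, Cnot3-cKO 1 and Cnot3-cKO 2 gave 2799, 2557, 2072 and 2176 higher and 3119, 2500, 1522 and 1570 lower. Higher calls then made up 47.3%, 50.6%, 57.7% and 58.1% of all calls, against 37.9%, 65.5%, 40.0% and 58.3% of the members' calls. More than 2-fold lower were 1 member without control 1, 1 without control 2 and 3 without Cnot3-cKO 2. All 22 members that passed kept their sign in each of the 12 other fits.

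**Figure D1:**
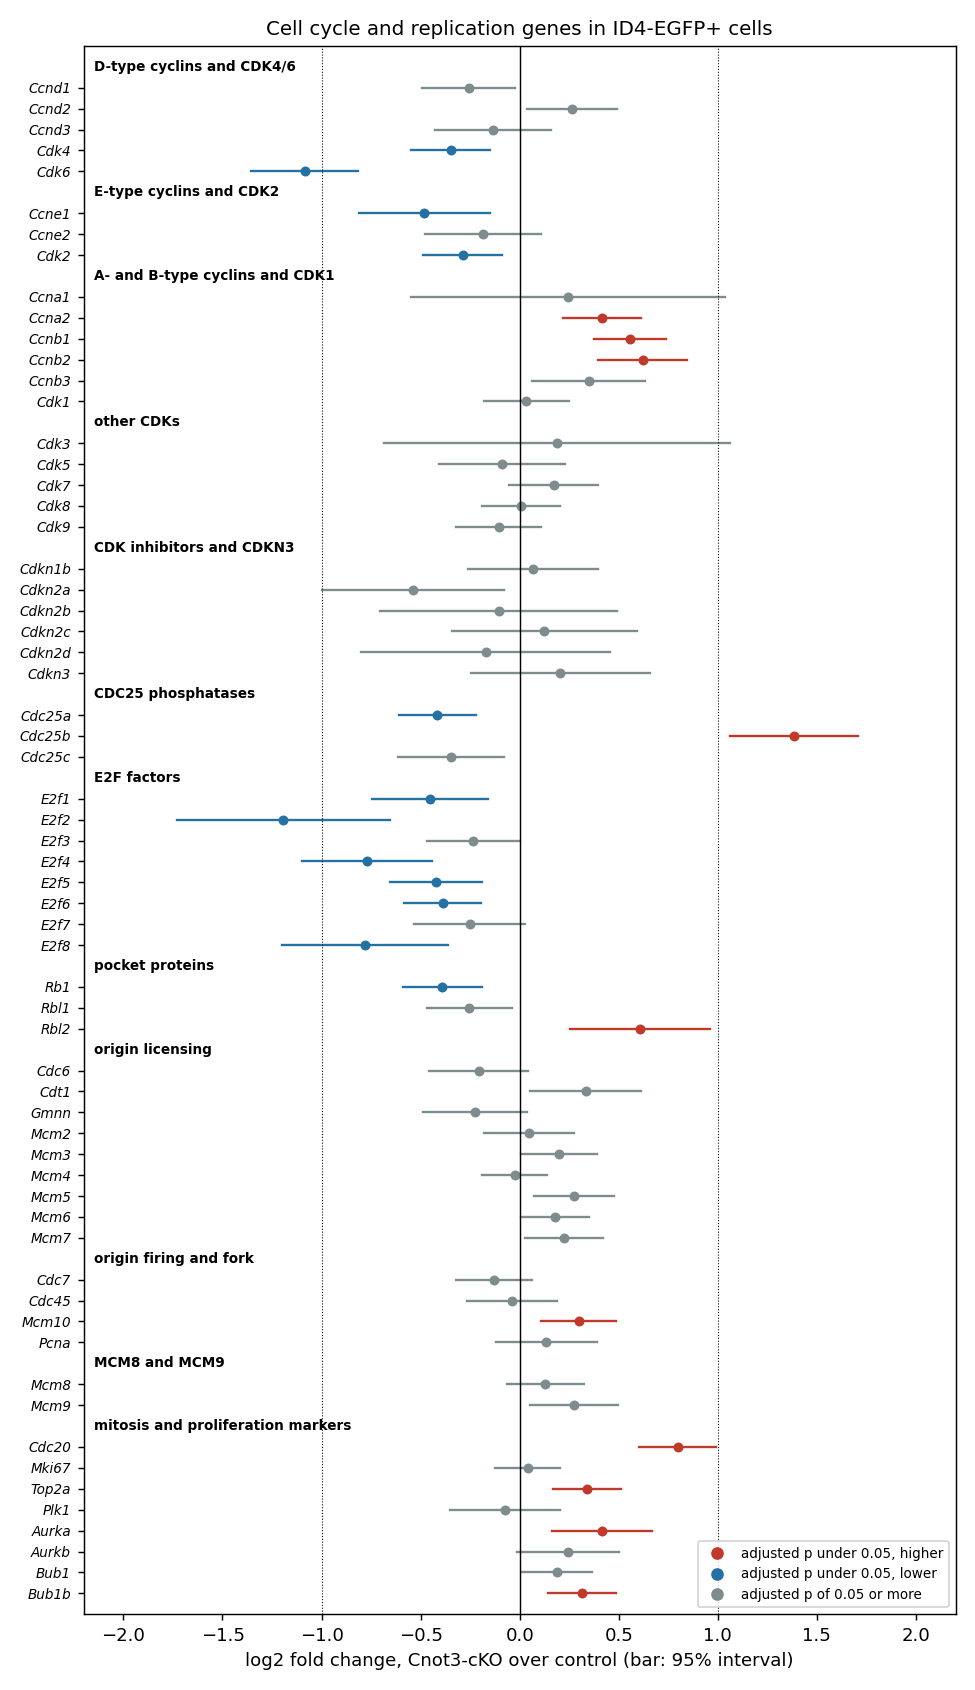
Log2 fold change of Cnot3-cKO over control for the 62 members, grouped by role; points are edgeR estimates from 2 libraries per group, bars are 95% intervals and dotted lines mark a 2-fold change. All 8 E2F factors lie left of 0 (from -1.19 to -0.23), while the 6 genes of A- and B-type cyclins and CDK1 lie right of it (0.03 to 0.62).

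Promoter sequences are shown for some members that moved together and for a licensing gene, since E2F sites and the paired CCAAT box and CHR (cell cycle genes homology region) are known elements of genes for DNA synthesis and for mitosis. RefSeq promoter windows on GRCm38.p6 matched 49 of the 62 members, in 56 windows, and the 250 bases before each gene start were searched. Ccnd1, Ccnd2, Ccne2, Ccna2, Cdk3, Cdk5, Cdc25c, E2f4, E2f5, Rb1, Gmnn, Mcm4 and Aurkb were not among them. The E2F motif was taken as TTTCCCGC, TTTCGCGC, TTTGCCGC or TTTGGCGC, the CHR as TTTGAA and the CCAAT box as CCAAT, each on both strands. Matches of different motifs shared no base in the members' windows, while matches of the E2F letters could overlap each other. CCAAT was found in 8 of the 9 windows of higher members, in 5 of 10 windows of lower members, in 22 of 37 windows of the others and in 33.8% of all 32851 windows. The CHR letters were in 4 of the 9, 2 of the 10 and 8 of the 37 windows and in 16.0% of all windows. CCAAT and CHR together were in 3 of the 9, 2 of the 10 and 6 of the 37 windows and in 5.55% of all windows. An E2F motif was in 0 of the 9, 2 of the 10 and 9 of the 37 windows and in 1.86% of all windows. The windows printed were chosen for their matches, and are the 3 of higher genes that hold both CCAAT and CHR, Ccnb2 (chr9:70421555-70421804, reverse strand), Top2a (chr11:99024190-99024439, reverse strand) and Cdc20 (chr4:118437344-118437593, reverse strand), and that of the lower gene E2f8 (chr7:48881597-48881846, reverse strand), 1 of the 2 of lower genes with both, with CCAAT and CHR matches in capitals. Those of the lower gene Cdc25a (chr9:109875329-109875578, forward strand) and of Mcm6 (chr1:128359706-128359955, reverse strand), a licensing gene that did not pass the test, follow with E2F matches in capitals.
Ccnb2: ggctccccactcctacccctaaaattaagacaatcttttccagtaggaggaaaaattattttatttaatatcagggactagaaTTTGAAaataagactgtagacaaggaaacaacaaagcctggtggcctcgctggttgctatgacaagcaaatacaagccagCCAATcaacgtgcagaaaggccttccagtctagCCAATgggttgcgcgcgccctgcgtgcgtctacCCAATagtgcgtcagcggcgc
Top2a: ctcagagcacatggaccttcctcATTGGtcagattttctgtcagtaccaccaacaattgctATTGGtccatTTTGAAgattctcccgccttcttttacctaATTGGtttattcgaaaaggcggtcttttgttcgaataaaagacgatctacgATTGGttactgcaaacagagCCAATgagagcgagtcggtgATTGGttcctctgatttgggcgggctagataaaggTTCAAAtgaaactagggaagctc
Cdc20: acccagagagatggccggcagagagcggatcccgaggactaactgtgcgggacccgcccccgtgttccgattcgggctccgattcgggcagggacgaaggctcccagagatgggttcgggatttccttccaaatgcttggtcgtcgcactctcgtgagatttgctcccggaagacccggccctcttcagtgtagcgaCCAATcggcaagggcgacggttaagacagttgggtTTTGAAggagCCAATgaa
E2f8: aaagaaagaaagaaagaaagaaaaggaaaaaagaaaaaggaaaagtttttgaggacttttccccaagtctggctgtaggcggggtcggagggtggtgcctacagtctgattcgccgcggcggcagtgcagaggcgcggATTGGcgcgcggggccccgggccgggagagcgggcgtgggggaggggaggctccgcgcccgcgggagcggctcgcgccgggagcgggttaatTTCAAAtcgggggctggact
Cdc25a: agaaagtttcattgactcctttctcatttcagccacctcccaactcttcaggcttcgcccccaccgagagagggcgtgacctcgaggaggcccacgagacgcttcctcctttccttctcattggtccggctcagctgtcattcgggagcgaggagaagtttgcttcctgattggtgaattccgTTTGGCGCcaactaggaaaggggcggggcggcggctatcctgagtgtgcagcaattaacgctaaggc
Mcm6: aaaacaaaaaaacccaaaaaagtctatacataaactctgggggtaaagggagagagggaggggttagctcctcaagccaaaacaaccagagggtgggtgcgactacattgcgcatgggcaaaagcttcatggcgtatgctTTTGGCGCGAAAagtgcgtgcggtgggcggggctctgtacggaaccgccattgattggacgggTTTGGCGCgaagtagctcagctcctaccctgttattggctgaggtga
None of these windows shares bases with a GENCODE M21 exon, except that 9 bases of the Cdc20 window do. The Ccnb2 window held 3 CCAAT matches and 1 CHR match, the Top2a window 6 and 2, the Cdc20 window 2 and 1, and the E2f8 window 1 and 1. In that order the nearest CHR match was 167, 23, 18 and 20 bases before the start, and the nearest CCAAT match 21, 58, 8 and 112. The CHR match of Ccnb2 thus lay farther from the start than its 3 CCAAT matches. The Cdc25a window held 1 E2F match, 67 bases before the start, and the Mcm6 window held 3, of which the nearest was 47 bases before it. A match describes the letters of a window, and binding was not measured.

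Among the D-type cyclins and their kinases, Cdk6 showed the largest difference. This kinase had 79.1 and 65.2 CPM in controls 1 and 2 and 32.4 and 35.6 CPM in Cnot3-cKO 1 and 2. The Cnot3-cKO values were below both controls, and the gap between the groups exceeded the spread within either. The log2 fold change was -1.09 (standard error 0.12, edgeR adjusted p = 9.77e-05), with a 95% interval of -1.35 to -0.82. Cdk4, which encodes the other D-cyclin kinase, had 187 and 217 CPM in controls 1 and 2 and 156 and 161 CPM in Cnot3-cKO 1 and 2. The groups did not overlap, and the log2 fold change was -0.35 (standard error 0.09, edgeR adjusted p = 0.0177). The D-type cyclins themselves did not pass the test. Ccnd1 had 84.7 and 101 against 74.6 and 81.0 CPM (edgeR adjusted p = 0.119), Ccnd2 had 197 and 159 against 224 and 203 CPM (edgeR adjusted p = 0.0989), and Ccnd3 had overlapping groups (edgeR adjusted p = 0.549).

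Ratios within a library do not depend on scaling between libraries. The pairs of members given here and below were picked by hand, and how often other pairs separate the groups was not tested. Cdk6 had 0.422 and 0.301 reads for each Cdk4 read in the controls and 0.207 and 0.221 in the Cnot3-cKO libraries, so the ratio was lower in both Cnot3-cKO libraries. The ratio of Ccnd1 to Ccnd2 reads was 0.430 and 0.636 in controls and 0.334 and 0.398 in Cnot3-cKO libraries. These values did not overlap, though neither gene passed the test alone. Per kilobase of exon, Cdk4 was the most abundant gene of this group, with a control mean of 62.2 CPM per kb against 5.16 for Cdk6. Ccnd1 and Ccnd2 had 19.8 and 18.9 CPM per kb in controls and could not be ordered, since their control libraries overlapped. Cdk6 lost the fold limit without control 1, at -0.95, and with pan-germ cell scaling, at -0.95. Cdk4 no longer passed without Cnot3-cKO 1 (log2 fold change -0.34, edgeR adjusted p = 0.110), without Cnot3-cKO 2 (-0.38, edgeR adjusted p = 0.0657) or with pan-germ cell scaling (-0.20, edgeR adjusted p = 0.172). Without control 1, Ccnd1 (-0.39, edgeR adjusted p = 0.00138) and Ccnd2 (0.41, edgeR adjusted p = 4.45e-05) passed in opposite directions. With scaling to library size or to pan-germ cell genes Ccnd2 also passed, at 0.33 (edgeR adjusted p = 0.0472) and 0.40 (edgeR adjusted p = 0.0360).

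E-type cyclins and CDK2 act next, at the start of DNA synthesis. Ccne1 had 22.0 and 26.5 CPM in controls 1 and 2 and 17.5 and 17.2 CPM in Cnot3-cKO 1 and 2. Its groups did not overlap, and Cnot3-cKO was lower at a log2 fold change of -0.48 (standard error 0.15, edgeR adjusted p = 0.0412). Cdk2 had 110 and 120 CPM in controls 1 and 2 and 96.0 and 92.3 CPM in Cnot3-cKO 1 and 2. The groups were separate here too, and the log2 fold change was -0.29 (standard error 0.09, edgeR adjusted p = 0.0433). In Ccne2 both Cnot3-cKO libraries lay between the controls, which were themselves far apart (71.1 and 99.0 against 73.6 and 76.1 CPM, edgeR adjusted p = 0.389). The 2 calls were close to the threshold. Ccne1 and Cdk2 no longer passed when any library other than control 1 was left out: without control 2 (-0.35, edgeR adjusted p = 0.173 and -0.24, edgeR adjusted p = 0.0740), without Cnot3-cKO 1 (-0.50, edgeR adjusted p = 0.122 and -0.33, edgeR adjusted p = 0.155) and without Cnot3-cKO 2 (-0.48, edgeR adjusted p = 0.141 and -0.26, edgeR adjusted p = 0.264). Ccne1 also fell short after thinning to the smallest library (-0.42, edgeR adjusted p = 0.0711). Neither passed with library size scaling (-0.42, edgeR adjusted p = 0.0701 and -0.22, edgeR adjusted p = 0.106) or pan-germ cell scaling (-0.34, edgeR adjusted p = 0.149 and -0.14, edgeR adjusted p = 0.376), and Ccne2 passed without control 1 (-0.42, edgeR adjusted p = 7.21e-04).

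CDC25 phosphatases remove the inhibitory phosphates from CDKs, and the 3 family members differed in sign. Cdc25b had 13.7 and 16.9 CPM in controls 1 and 2 and 42.5 and 37.3 CPM in Cnot3-cKO 1 and 2. It was the member with the largest increase, with both Cnot3-cKO libraries more than 2-fold above both controls. Its log2 fold change was 1.38 (standard error 0.15, edgeR adjusted p = 7.04e-05), with a 95% interval of 1.06 to 1.71. Cdc25a, which acts at the start of DNA synthesis, had 113 and 117 CPM in controls 1 and 2 and 86.4 and 85.9 CPM in Cnot3-cKO 1 and 2. The groups were tight and separate, and the log2 fold change was -0.42 (standard error 0.09, edgeR adjusted p = 0.00601). Cdc25c was lower in both Cnot3-cKO libraries (39.3 and 39.2 against 28.8 and 32.9 CPM) and did not pass the test (log2 fold change -0.35, edgeR adjusted p = 0.0682). Within each library, there were 0.121 and 0.144 Cdc25b reads for each Cdc25a read in controls and 0.492 and 0.434 in Cnot3-cKO libraries. In controls Cdc25b was the least abundant per kilobase (4.09 CPM per kb, against 14.3 for Cdc25a and 7.98 for Cdc25c). In Cnot3-cKO libraries it reached 10.7 CPM per kb, a level not separated from the 10.7 of Cdc25a by the spread between libraries. Cdc25b passed in each of the 12 other fits, while Cdc25a did not pass without Cnot3-cKO 2 (-0.42, edgeR adjusted p = 0.0519) or with pan-germ cell scaling (-0.27, edgeR adjusted p = 0.0734). DESeq2 brought Cdc25c under the threshold (-0.37, DESeq2 adjusted p = 0.0480).

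Of the A- and B-type cyclins, Ccnb1, Ccnb2 and Ccna2 were higher in Cnot3-cKO cells. Ccnb1 had 192 and 212 CPM in controls 1 and 2 and 302 and 294 CPM in Cnot3-cKO 1 and 2. Ccnb2 had 60.5 and 69.9 CPM in controls 1 and 2 and 103 and 97.2 CPM in Cnot3-cKO 1 and 2. Ccna2, the cyclin of S phase and G2, had 198 and 224 CPM in controls 1 and 2 and 295 and 269 CPM in Cnot3-cKO 1 and 2. Groups were separate in all 3 genes, with Cnot3-cKO above. The log2 fold changes were 0.56 (standard error 0.08, edgeR adjusted p = 6.89e-04) for Ccnb1, 0.62 (standard error 0.10, edgeR adjusted p = 0.00129) for Ccnb2 and 0.42 (standard error 0.09, edgeR adjusted p = 0.00635) for Ccna2. Their shared kinase did not follow: Cdk1 had 70.0 and 76.4 against 74.5 and 75.3 CPM, with overlapping groups and a log2 fold change of 0.03 (95% interval -0.18 to 0.25, edgeR adjusted p = 0.860). Accordingly, the number of Ccnb1 reads for each Cdk1 read was 2.75 and 2.78 in controls and 4.05 and 3.90 in Cnot3-cKO libraries. Ccnb3, a cyclin of meiotic prophase, had 30.2 and 35.6 against 39.1 and 44.6 CPM and did not pass (edgeR adjusted p = 0.0804).

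Ccna1, the meiotic A-type cyclin, was the least abundant member with a gene model, at 0.859 CPM per kb in controls, and did not pass (0.24, edgeR adjusted p = 0.707). All 6 genes of this group had a positive sign in each scaling. Without control 1, Cdk1 had a log2 fold change of -0.04. Ccna2 no longer passed without Cnot3-cKO 1 (0.34, edgeR adjusted p = 0.0890). Ccnb3 passed without control 2 (0.46, edgeR adjusted p = 0.0110), with library size scaling (0.41, edgeR adjusted p = 0.0377) and with pan-germ cell scaling (0.49, edgeR adjusted p = 0.0154). Pseudogene copies are annotated for 2 of these genes. The pseudogene Ccnb1-ps was counted separately and had 66.9 and 67.0 CPM in controls 1 and 2 and 112 and 113 CPM in Cnot3-cKO 1 and 2, with a log2 fold change of 0.75 (standard error 0.09, edgeR adjusted p = 1.63e-04), while Ccnb2-ps had 5.19 and 3.80 against 4.77 and 5.45 CPM (edgeR adjusted p = 0.676). How reads matching both a gene and its copy were assigned is not given in the sources used here, so how far the split between Ccnb1 and Ccnb1-ps reflects assignment was not tested. Each of these 2 was higher in the Cnot3-cKO libraries.

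Of 8 regulators and markers of mitosis, 4 (50%) were higher at an adjusted p under 0.05, against 11.1% of all tested genes. Cdc20, the activator of the anaphase-promoting complex, had 131 and 143 CPM in controls 1 and 2 and 251 and 226 CPM in Cnot3-cKO 1 and 2. Aurka, a spindle kinase, had 62.2 and 59.9 CPM in controls 1 and 2 and 90.7 and 72.5 CPM in Cnot3-cKO 1 and 2. Top2a, the topoisomerase that untangles replicated chromosomes, had 924 and 1055 CPM in controls 1 and 2 and 1256 and 1248 CPM in Cnot3-cKO 1 and 2. In these 3 genes the Cnot3-cKO values exceeded both controls, and Aurka varied most between the Cnot3-cKO libraries relative to its level. Log2 fold changes were 0.80 (standard error 0.09, edgeR adjusted p = 9.07e-05) for Cdc20, 0.42 (standard error 0.12, edgeR adjusted p = 0.0236) for Aurka and 0.34 (standard error 0.08, edgeR adjusted p = 0.00951) for Top2a. The checkpoint kinase gene Bub1b had 291 and 306 CPM in controls 1 and 2 and 379 and 363 CPM in Cnot3-cKO 1 and 2. Its groups did not overlap, at a log2 fold change of 0.31 (standard error 0.08, edgeR adjusted p = 0.0138).

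Other proliferation genes of the group did not pass. Mki67, the standard proliferation marker, had 764 and 720 CPM in controls 1 and 2 and 742 and 784 CPM in Cnot3-cKO 1 and 2. The groups overlapped, and the log2 fold change of 0.04 had a 95% interval of -0.12 to 0.20 (edgeR adjusted p = 0.771). Plk1 (-0.07, edgeR adjusted p = 0.750) and Aurkb (0.24, edgeR adjusted p = 0.176) also had overlapping groups, while Bub1 (0.19, edgeR adjusted p = 0.131) was higher in both Cnot3-cKO libraries. Relative to Mki67 in the same library, Ccnb1 reads stood at 0.252 and 0.295 in controls and at 0.407 and 0.375 in Cnot3-cKO libraries. For Cdc20 these ratios were 0.172 and 0.198 against 0.338 and 0.288. Cdc20 passed in each of the 12 other fits. Aurka fell short without Cnot3-cKO 1 (0.24, edgeR adjusted p = 0.387), as did Bub1b (0.27, edgeR adjusted p = 0.199) and Top2a (0.32, edgeR adjusted p = 0.0831). Without Cnot3-cKO 2, Bub1b (0.34, edgeR adjusted p = 0.0814) and Top2a (0.34, edgeR adjusted p = 0.0679) fell short. Without control 2, Bub1 (0.25, edgeR adjusted p = 0.0132) and Aurkb (0.37, edgeR adjusted p = 0.00678) passed, as both did with pan-germ cell scaling (0.33, edgeR adjusted p = 0.0237 and 0.39, edgeR adjusted p = 0.0430), while Bub1 also passed with library size scaling (0.25, edgeR adjusted p = 0.0421). Plk1 turned positive with pan-germ cell scaling (0.07), and Mki67 was at -0.01 without control 2 and at -0.0048 without Cnot3-cKO 2, all close to 0.

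**Figure D2:**
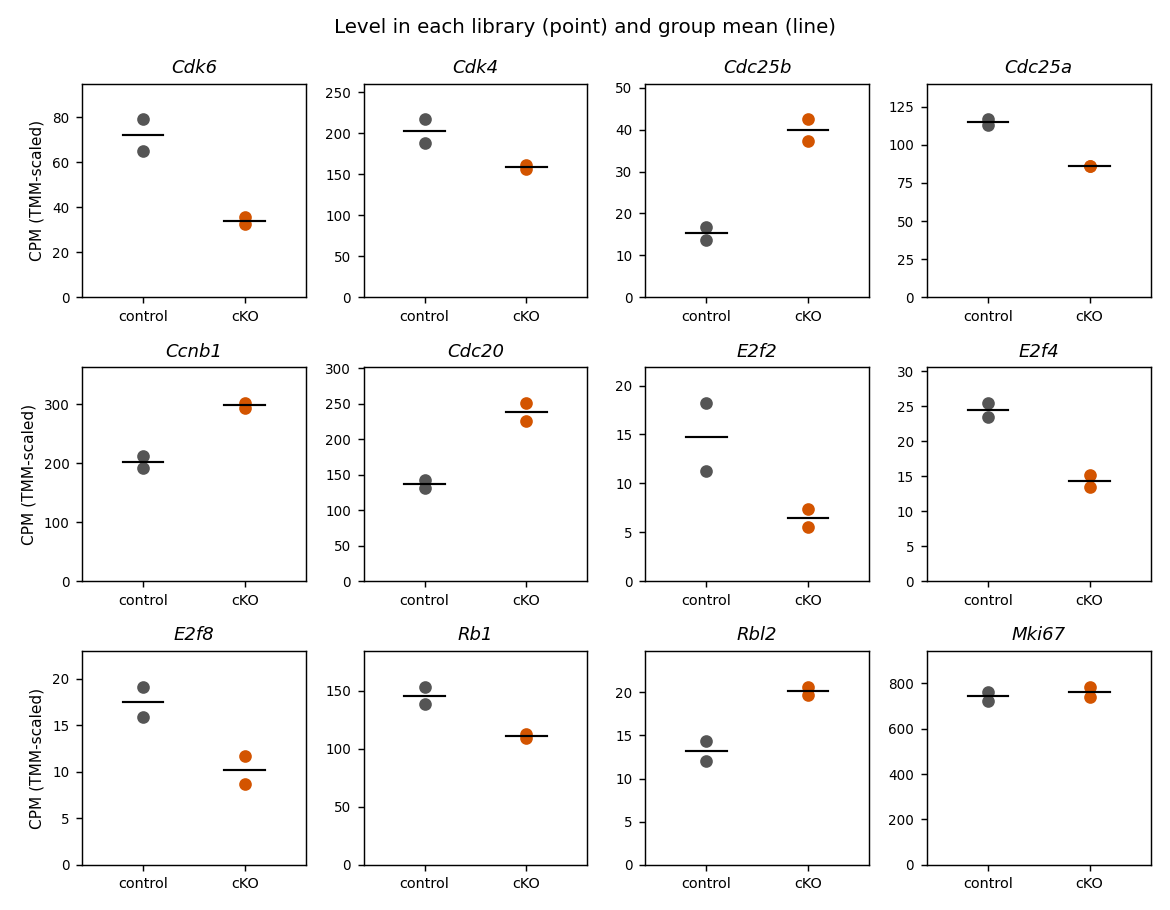
CPM (TMM-scaled) of 12 members in each library, with control libraries in gray, Cnot3-cKO libraries in orange and a line at each group mean; every axis starts at 0. Cdk6 falls from about 72.2 to 34.0 CPM and Cdc25b rises from 15.3 to 39.9 CPM, while the 4 Mki67 values lie between 720 and 784 CPM.

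E2F factors had a uniform direction: in all 8 genes both Cnot3-cKO libraries were below both controls (28.6% of all tested genes), 6 of the 8 were lower at an adjusted p under 0.05 (9.46% of all tested genes), and all 8 were negative in each scaling. E2f2, an activating E2F, had 11.2 and 18.2 CPM in controls 1 and 2 and 7.37 and 5.55 CPM in Cnot3-cKO 1 and 2. Its controls differed widely from each other and still lay above both Cnot3-cKO libraries. The log2 fold change was -1.19 (standard error 0.25, edgeR adjusted p = 0.00505), with a 95% interval of -1.73 to -0.65. E2f1, the other activating member that passed, had 44.8 and 45.9 CPM in controls 1 and 2 and 37.4 and 29.0 CPM in Cnot3-cKO 1 and 2. Here the Cnot3-cKO libraries differed more than the controls, and the log2 fold change was -0.45 (standard error 0.14, edgeR adjusted p = 0.0323). E2f3, the remaining activator, did not pass (56.6 and 60.1 against 51.6 and 47.6 CPM, log2 fold change -0.23, edgeR adjusted p = 0.151).

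Repressive and atypical E2Fs had the same sign as the activators. E2f4, which binds pocket proteins in resting cells, had 25.4 and 23.4 CPM in controls 1 and 2 and 15.2 and 13.5 CPM in Cnot3-cKO 1 and 2. E2f5, its close relative, had 59.8 and 63.6 CPM in controls 1 and 2 and 44.9 and 47.1 CPM in Cnot3-cKO 1 and 2. Neither gene had overlapping groups, and the log2 fold changes were -0.77 (standard error 0.15, edgeR adjusted p = 0.00368) for E2f4 and -0.42 (standard error 0.11, edgeR adjusted p = 0.0139) for E2f5. E2f6, a repressor that does not bind pocket proteins, had 132 and 127 CPM in controls 1 and 2 and 102 and 96.1 CPM in Cnot3-cKO 1 and 2. Its log2 fold change was -0.39 (standard error 0.09, edgeR adjusted p = 0.00870). Of the atypical pair, E2f8 had 15.9 and 19.1 CPM in controls 1 and 2 and 8.65 and 11.7 CPM in Cnot3-cKO 1 and 2. Cnot3-cKO values were lower in each library, at a log2 fold change of -0.78 (standard error 0.19, edgeR adjusted p = 0.0127), while E2f7 (32.7 and 34.1 against 26.4 and 29.7 CPM) did not pass (-0.25, edgeR adjusted p = 0.202).

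Summed over the 8 E2F genes, the level was 379 and 391 CPM in controls and 293 and 280 CPM in Cnot3-cKO libraries. Per kilobase, E2f5 was the most abundant in controls (34.6 CPM per kb), followed by E2f6 (22.9) and E2f1 (14.4). E2f7, E2f8 and E2f2 were the lowest, at 3.71, 3.22 and 3.01 CPM per kb, and the control values of E2f2 overlapped those of the other 2. E2f4 passed in each of the 12 other fits. E2f2 did too, but without control 2 its log2 fold change was -0.81 (edgeR adjusted p = 0.0104), which is under the 2-fold limit, and with E2f2 out that rule left 1 member lower. E2f1 did not pass without Cnot3-cKO 2 (-0.28, edgeR adjusted p = 0.331), with library size scaling (-0.39, edgeR adjusted p = 0.0595) or with pan-germ cell scaling (-0.31, edgeR adjusted p = 0.172). E2f8 passed the fold rule without Cnot3-cKO 2 (-1.02, edgeR adjusted p = 0.00156). Without Cnot3-cKO 1, E2f5 (-0.40, edgeR adjusted p = 0.113) and E2f8 (-0.60, edgeR adjusted p = 0.0890) fell short, and without Cnot3-cKO 2, E2f5 (-0.46, edgeR adjusted p = 0.0544) and E2f6 (-0.35, edgeR adjusted p = 0.108) did. Pan-germ cell scaling also ended the calls of E2f5 (-0.28, edgeR adjusted p = 0.0958) and E2f6 (-0.25, edgeR adjusted p = 0.124), leaving 3 of the 8 lower.

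Pocket proteins, which hold E2Fs in check, moved in both directions. Rb1 had 153 and 138 CPM in controls 1 and 2 and 109 and 113 CPM in Cnot3-cKO 1 and 2. Cnot3-cKO values lay below both controls, with a log2 fold change of -0.39 (standard error 0.09, edgeR adjusted p = 0.00944). Rbl2, which encodes p130, had 14.4 and 12.1 CPM in controls 1 and 2 and 20.6 and 19.7 CPM in Cnot3-cKO 1 and 2. Here the Cnot3-cKO values lay above both controls, at a log2 fold change of 0.61 (standard error 0.16, edgeR adjusted p = 0.0190). Rbl1 (p107) was lower in both without passing (71.1 and 74.2 against 61.5 and 60.3 CPM, edgeR adjusted p = 0.0912). The number of Rbl2 reads for each Rb1 read was 0.0938 and 0.0874 in controls and 0.189 and 0.174 in Cnot3-cKO libraries. Rb1 remained the more abundant, with 18.5 CPM per kb against 2.67 for Rbl2 in Cnot3-cKO cells. Rb1 did not pass without Cnot3-cKO 1 (-0.38, edgeR adjusted p = 0.0793) or with pan-germ cell scaling (-0.25, edgeR adjusted p = 0.119), Rbl2 did not pass without control 2 (0.47, edgeR adjusted p = 0.0605) or Cnot3-cKO 1 (0.57, edgeR adjusted p = 0.0917), and Rbl1 passed without control 1 (-0.30, edgeR adjusted p = 0.0421).

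Per kilobase, the MCM2 to MCM7 subunits ranked from 1 to 13 among the 61 members with a gene model, Gmnn 16, Cdt1 27 and Cdc6 35. None of the 9 origin licensing genes passed at an adjusted p under 0.05 by edgeR or DESeq2, while 5 had an unadjusted edgeR p under 0.05. In controls, Mcm6 had the highest level of all members with a gene model (116 CPM per kb), next to Top2a (110), from which the control libraries did not separate it. The lowest of the 6 helicase subunits was Mcm2, at 54.1 CPM per kb. Mcm5, which had the smallest p of the group, had 291 and 347 CPM in controls 1 and 2 and 396 and 376 CPM in Cnot3-cKO 1 and 2. Both Cnot3-cKO libraries were higher, and the log2 fold change of 0.27 fell short of the threshold (edgeR adjusted p = 0.0558). It did pass in 7 of the 12 other fits, among them those without an expression filter (0.24, edgeR adjusted p = 0.0277), with genes averaging 50 reads or more (0.30, edgeR adjusted p = 0.0238) and after thinning (0.28, edgeR adjusted p = 0.0418). Cdt1 passed without a filter (0.31, edgeR adjusted p = 0.0434) and at the higher count floor (0.37, edgeR adjusted p = 0.0423), and Mcm7 at that floor (0.26, edgeR adjusted p = 0.0492). Over MCM2 to MCM7 the log2 fold changes ran from -0.03 to 0.27, and their 95% intervals reached up to 0.474. The loading factors Cdc6 (-0.21, edgeR adjusted p = 0.238) and Cdt1 (0.33, edgeR adjusted p = 0.0902) differed in sign, and Gmnn, the inhibitor of CDT1, had overlapping groups (-0.22, edgeR adjusted p = 0.227).

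The control libraries differed from each other in this group. Control 2 was above control 1 in all 9 licensing genes, by a median of 0.25 on the log2 scale, and in 49 of the 62 members, while Cnot3-cKO 2 was above Cnot3-cKO 1 in 24. Over the 11950 tested genes with a mean of at least 200 reads, control 2 was above control 1 in 6848, by a median of 0.04. Leaving out control 2 brought 6 licensing genes over the threshold as higher, with log2 fold changes of 0.23 (edgeR adjusted p = 0.0231) for Mcm2, 0.30 (edgeR adjusted p = 0.00158) for Mcm3, 0.39 (edgeR adjusted p = 2.46e-05) for Mcm5, 0.24 (edgeR adjusted p = 0.00683) for Mcm6, 0.34 (edgeR adjusted p = 1.93e-04) for Mcm7 and 0.53 (edgeR adjusted p = 1.36e-04) for Cdt1. Leaving out control 1 instead brought Cdc6 (-0.34, edgeR adjusted p = 0.0109) and Gmnn (-0.38, edgeR adjusted p = 0.00798) over it as lower, and turned Mcm2 to -0.14. With library size scaling, and likewise with pan-germ cell scaling, 5 of the 9 were called higher (Cdt1, Mcm3, Mcm5, Mcm6 and Mcm7), and Mcm4 turned from -0.03 to 0.04 and 0.12.

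Of the genes for origin firing and the replication fork, Mcm10 was the 1 of 4 that passed. It had 116 and 119 CPM in controls 1 and 2 and 149 and 140 CPM in Cnot3-cKO 1 and 2. Both Cnot3-cKO libraries were above both controls, with a log2 fold change of 0.30 (standard error 0.09, edgeR adjusted p = 0.0299). Cdc7, the kinase of origin firing, was at -0.13 (edgeR adjusted p = 0.349), Cdc45 at -0.04 (edgeR adjusted p = 0.851) and Pcna, the sliding clamp, at 0.14 (edgeR adjusted p = 0.475). The 4 Pcna values were 137 and 183 against 179 and 173 CPM, so that control 1 stood below the other 3 libraries. Its copy Pcna-ps2 had 61.4 and 79.0 against 81.7 and 83.2 CPM (edgeR adjusted p = 0.203), and the assignment of reads between them was not tested either. Mcm10 did not pass without Cnot3-cKO 1 (0.24, edgeR adjusted p = 0.322) or without Cnot3-cKO 2 (0.34, edgeR adjusted p = 0.106), and Pcna passed without control 2 (0.34, edgeR adjusted p = 0.00205). Cdc7 and Cdc45 turned positive with pan-germ cell scaling (0.01 and 0.11). Mcm8 and Mcm9, helicase subunits of DNA repair and meiosis, were each higher in both Cnot3-cKO libraries without passing. Mcm9, with the smaller p, had 52.4 and 51.6 CPM in controls 1 and 2 and 61.9 and 63.9 CPM in Cnot3-cKO 1 and 2. Its groups did not overlap (0.27, edgeR adjusted p = 0.0780), and it passed with library size and pan-germ cell scaling (0.34, edgeR adjusted p = 0.0321 and 0.42, edgeR adjusted p = 0.0171).

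CDK inhibitors were low in both groups. None of the 6 genes of this group passed by edgeR or DESeq2, and 1 had an unadjusted edgeR p under 0.05. Cdkn2a had 8.84 and 11.8 CPM in controls 1 and 2 and 7.28 and 6.95 CPM in Cnot3-cKO 1 and 2. Cnot3-cKO was lower in each library, at a log2 fold change of -0.54 with a 95% interval of -0.999 to -0.08 (edgeR adjusted p = 0.0933), and it passed without control 1 (-0.75, edgeR adjusted p = 0.0114). Counts per gene do not separate its transcripts for p16 INK4A and p19 ARF. Cdkn1b (p27) was at 4.63 CPM per kb in controls and 4.84 in Cnot3-cKO cells, with overlapping groups. Cdkn2b, Cdkn2c, Cdkn2d and the phosphatase gene Cdkn3 also overlapped, with between 83 and 407 reads in a library, and their 95% intervals spanned changes from -0.799 to 0.658.

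CDKs with other roles gave 0 calls among 5 genes by edgeR and DESeq2, and 0 had an unadjusted edgeR p under 0.05. Cdk7, the CDK-activating kinase, had the smallest p and 70.8 and 77.0 CPM in controls 1 and 2 and 88.6 and 77.9 CPM in Cnot3-cKO 1 and 2. Both Cnot3-cKO libraries were higher, Cnot3-cKO 2 only slightly, and the log2 fold change was 0.17 (edgeR adjusted p = 0.287). Cdk8 and Cdk9, kinases of transcription, were at 0.01 and -0.11, with 95% intervals of -0.19 to 0.20 and -0.32 to 0.11. Cdk5 was at -0.09, and it and Cdk9 changed sign with pan-germ cell scaling (0.06 and 0.04). Cdk3, which has no gene model under that symbol in GENCODE M21, had 38 to 75 reads in a library and a wide interval (-0.68 to 1.06).

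**Figure D3:**
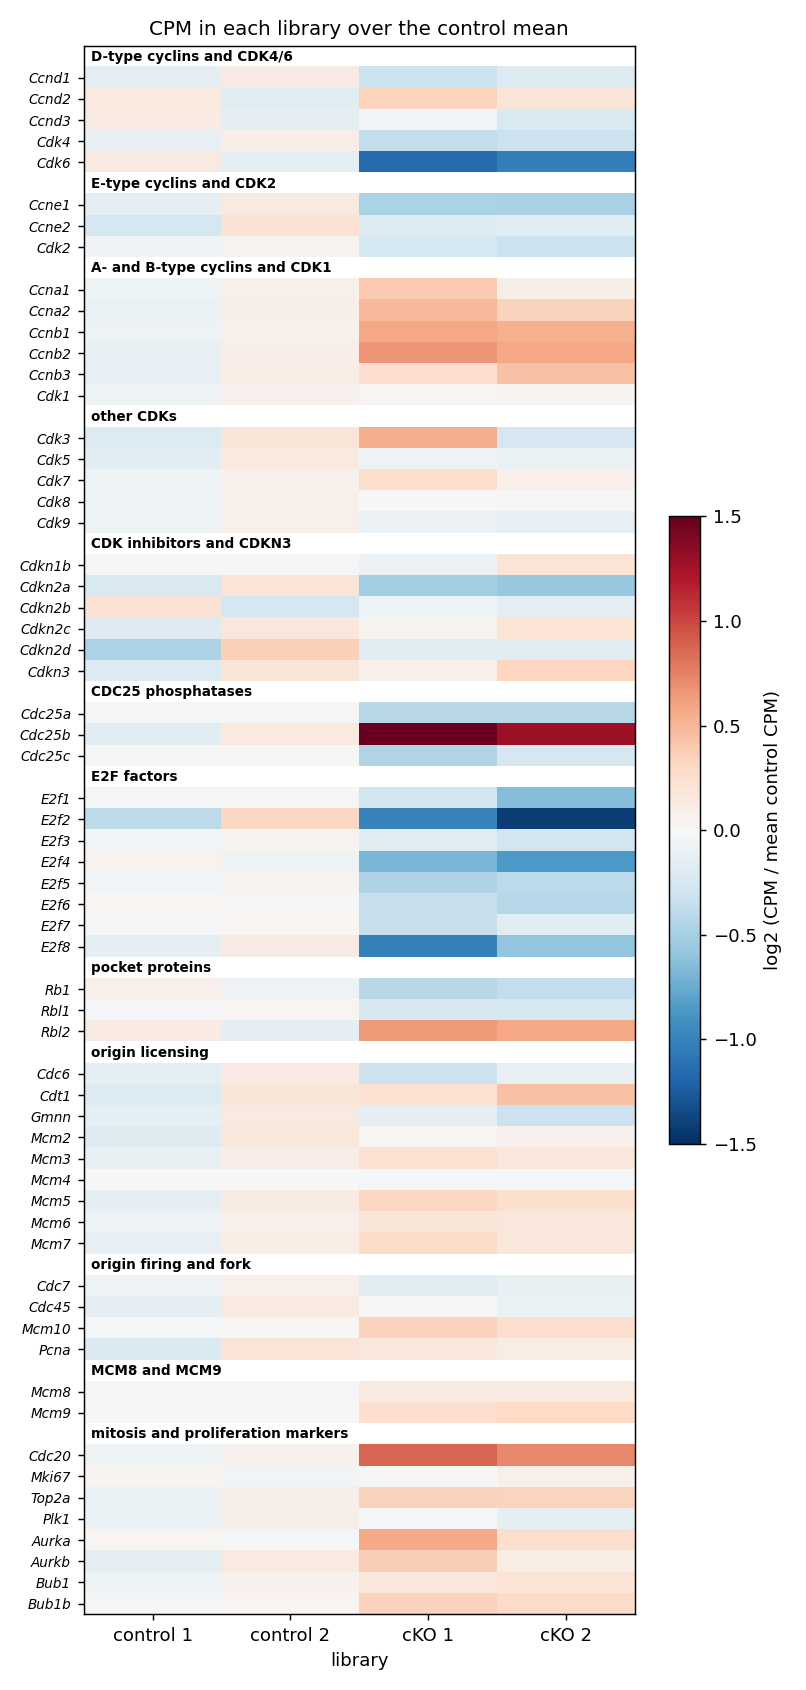
Log2 ratio of the CPM in each library to the mean of both controls, for the 62 members by role; red is above and blue below the control mean. Control 2 is redder than control 1 in 49 of the 62 members, and Cdk6, Cdc25b, E2f2 and Cdc20 have the largest absolute log2 fold changes.

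Some exons lie under 2 genes at once. Of 61 members with a gene model in GENCODE M21, 23 shared exonic bases with another gene, and 11 shared over 10% of their exonic length, all with genes on the opposite strand and Mcm7 also with microRNA genes on its own strand. With a single other gene, the shared length was 23.4% for Ccnd1, 19.7% for Cdk4, 19.2% for Mcm9, 17.4% for Ccne2, 12.7% for Cdc25c, 12.5% for Ccna2, 11.2% for E2f8 and 10.1% for Ccna1. Rbl2 shared 11.8% and 9.17% with 2 genes and Rb1 8.11% and 6.78% with 2 others, while Mcm7 shared up to 7.25% with each of 4. The library kit keeps the strand, but whether counting used it is not given in the sources used here, so reads from both genes in these stretches cannot be told apart.

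Genes of the same pathway outside the symbol rule were also counted. Of 124 tested, Cdkn1a rose and Ccnj fell by the fold rule, and 13 (10.5%) were higher and 22 (17.7%) lower at an adjusted p under 0.05 (11.1% and 9.46% of all tested genes), with a median log2 fold change of -0.07. Cdkn1a, which encodes the inhibitor p21, had 2.01 and 2.45 CPM in controls 1 and 2 and 7.72 and 4.78 CPM in Cnot3-cKO 1 and 2. Both Cnot3-cKO libraries were above both controls but differed from each other, and the log2 fold change was 1.48 (standard error 0.30, edgeR adjusted p = 0.00412). Without Cnot3-cKO 1 it was 1.09 (edgeR adjusted p = 0.0223), short of the fold rule. Among 14 other cyclins, 2 were higher and 4 lower. Ccnj had 46.4 and 38.9 CPM in controls 1 and 2 and 18.4 and 23.4 CPM in Cnot3-cKO 1 and 2. Its groups did not overlap (-1.03, standard error 0.15, edgeR adjusted p = 5.72e-04), and it fell under the 2-fold limit without control 1 (-0.91), without Cnot3-cKO 1 (-0.88), with library size scaling (-0.96) and with pan-germ cell scaling (-0.891), and marginally with a higher count floor or thinning. Ccng1, a p53 target, had 106 and 130 CPM in controls 1 and 2 and 222 and 222 CPM in Cnot3-cKO 1 and 2. Both Cnot3-cKO libraries were higher (0.91, standard error 0.10, edgeR adjusted p = 8.98e-05), and it passed the fold rule without control 2 (1.06, edgeR adjusted p = 2.68e-20) and with pan-germ cell scaling (1.06, edgeR adjusted p = 1.76e-05).

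Partners of the E2F and pocket proteins came next. Calls in these lists used an adjusted p under 0.05, by which 11.1% of all tested genes were higher and 9.46% lower. In the list of DREAM and MuvB genes, the complexes that repress cell cycle genes in resting cells and activate mitotic genes later, 4 of 9 were lower (Foxm1, Tfdp1, Mybl2 and Rbbp4) and 0 were higher. Foxm1, an activator of mitotic genes, had 114 and 111 CPM in controls 1 and 2 and 75.5 and 72.3 CPM in Cnot3-cKO 1 and 2. Its groups were separate, at -0.61 (standard error 0.09, edgeR adjusted p = 7.04e-04). Among 11 CDK regulators and SCF ligase genes, 1 was higher and 4 were lower, and Cables2 had the smallest p (75.2 and 82.8 against 55.2 and 50.2 CPM, log2 fold change -0.58, standard error 0.11, edgeR adjusted p = 0.00223). The spindle and checkpoint list had 8 of 23 higher (34.8%), 1 lower (4.35%) and a median log2 fold change of 0.22. Kif11, a spindle motor, had 307 and 336 CPM in controls 1 and 2 and 434 and 453 CPM in Cnot3-cKO 1 and 2. Both groups were tight and Cnot3-cKO was higher (0.46, standard error 0.08, edgeR adjusted p = 0.00174).

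Lists of DNA synthesis and of protein partners followed, with calls at an adjusted p under 0.05 (11.1% of all tested genes higher and 9.46% lower). Of 16 origin recognition and firing genes, 3 were lower and 0 higher, with Ticrr at -0.57 (standard error 0.12, edgeR adjusted p = 0.00489) (64.5 and 61.5 against 46.4 and 38.8 CPM). It did not pass without Cnot3-cKO 2 (-0.45, edgeR adjusted p = 0.0656). Of 21 genes for replicative polymerases and clamp loading, 1 was higher and 1 lower. Prim1, the catalytic subunit of primase, was the higher one (66.5 and 81.4 against 114 and 112 CPM, 0.61, standard error 0.11, edgeR adjusted p = 0.00195). Of 7 genes for nucleotide supply, 2 were lower, and Dck, the deoxycytidine kinase gene, had the smallest p (114 and 121 against 79.4 and 77.3 CPM, -0.59, standard error 0.09, edgeR adjusted p = 8.55e-04). The anaphase-promoting complex had 0 higher and 2 lower of 15, with Anapc2 (111 and 88.5 against 77.1 and 70.2 CPM) at -0.44 (standard error 0.12, edgeR adjusted p = 0.0184). It did not pass without Cnot3-cKO 2 (-0.38, edgeR adjusted p = 0.0902) or with pan-germ cell scaling (-0.30, edgeR adjusted p = 0.139). In the BTG and TOB family, whose products bind the CCR4-NOT deadenylase complex that CNOT3 belongs to, 1 of 6 was lower. Tob2 had 36.1 and 42.8 against 22.4 and 29.6 CPM, a log2 fold change of -0.60 (standard error 0.15, edgeR adjusted p = 0.0156), and did not pass without Cnot3-cKO 1 (-0.42, edgeR adjusted p = 0.135).

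Markers of other cell types were counted in the same libraries. Among all tested genes, 4.03% were higher by the fold rule and 11.1% at an adjusted p under 0.05. Of 12 Sertoli cell genes, 11 were higher by the fold rule, with a summed level of 249 and 234 CPM in controls and 807 and 820 CPM in Cnot3-cKO libraries. The most abundant per kilobase was Clu (152 and 145 against 479 and 479 CPM), and Sox9 had 3.80 and 3.64 against 18.8 and 16.1 CPM. Of 5 tested Leydig cell genes 4 were higher by that rule and 5 at an adjusted p under 0.05, the sums were 368 and 322 against 831 and 896 CPM, the most abundant was Hsd3b1 (287 and 248 against 656 and 712 CPM), and Cyp11a1 had 50.4 and 50.1 against 116 and 115 CPM. All 7 macrophage genes were higher by the fold rule, with sums of 218 and 132 against 485 and 398 CPM, led by Mrc1 (96.8 and 55.2 against 218 and 180 CPM), and Adgre1 had 19.5 and 13.1 against 36.3 and 31.9 CPM. Of 5 endothelial genes 2 were higher by the fold rule (sums of 25.7 and 22.6 against 37.3 and 42.7 CPM, Tek the most abundant with 10.1 and 7.63 against 11.3 and 13.4 CPM, and Pecam1 with 4.59 and 5.32 against 10.7 and 11.7 CPM), and of 5 peritubular myoid genes 0 were by that rule (13.6 and 16.2 against 19.95 and 24.86 CPM). The most abundant of these, Acta2, was the 1 of the 5 higher at an adjusted p under 0.05 (5.41 and 5.66 against 9.14 and 12.1 CPM, log2 fold change 0.94, edgeR adjusted p = 0.00828). No tested marker was at 0 reads in any library. Many members, among them Ccnb1, Ccnb2, Cdc20, Aurka, Mki67, Top2a and the MCM genes, are expressed by dividing cells of any type. The part of somatic cells in the members' values was not tested. In sorted bulk samples, fewer cells of a type and less RNA per cell cannot be told apart.

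Germ cell lists came last, from genes shared by most germ cells to those of single stages. By the fold rule 4.03% of all tested genes were higher and 0.735% lower. At an adjusted p under 0.05 these shares were 11.1% and 9.46%. The 11 tested pan-germ cell genes summed to 6472 and 6883 CPM in controls and 5773 and 6015 CPM in Cnot3-cKO libraries, and 0 passed the fold rule, while 1 was higher and 4 were lower at an adjusted p under 0.05. Dazl was the most abundant (2339 and 2634 against 2024 and 2263 CPM), and Ddx4 had 726 and 703 against 754 and 720 CPM. Of 6 genes of differentiating spermatogonia, 4 were lower by the fold rule and 5 at an adjusted p under 0.05, with sums of 491 and 608 against 284 and 328 CPM. Kit had 255 and 277 CPM in controls 1 and 2 and 119 and 138 CPM in Cnot3-cKO 1 and 2. Sohlh1, the most abundant per kilobase, had 109 and 146 against 109 and 116 CPM and did not pass (edgeR adjusted p = 0.359). Of 12 genes of undifferentiated spermatogonia, 2 were higher (Id4 and Eomes) and 3 lower (Lin28a, Neurog3 and Sox3) by the fold rule, and 5 were higher and 4 lower at an adjusted p under 0.05, with sums of 1377 and 1238 against 1088 and 1089 CPM. Id4, whose reporter set the sort, had 20.6 and 19.7 against 36.3 and 46.3 CPM, and Lin28a, the most abundant, had 420 and 409 against 199 and 191 CPM. Of 8 meiotic genes 1 (Meioc) was lower and 0 higher by the fold rule, while 1 (Hormad1) was higher and 1 lower at an adjusted p under 0.05. Their sums were 1115 and 1191 against 1146 and 1220 CPM, and Sycp1, the most abundant, had 496 and 530 against 571 and 593 CPM. How far the difference between stages contributes to the lower E2F and G1 kinase transcripts was not tested.

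**Figure D4:**
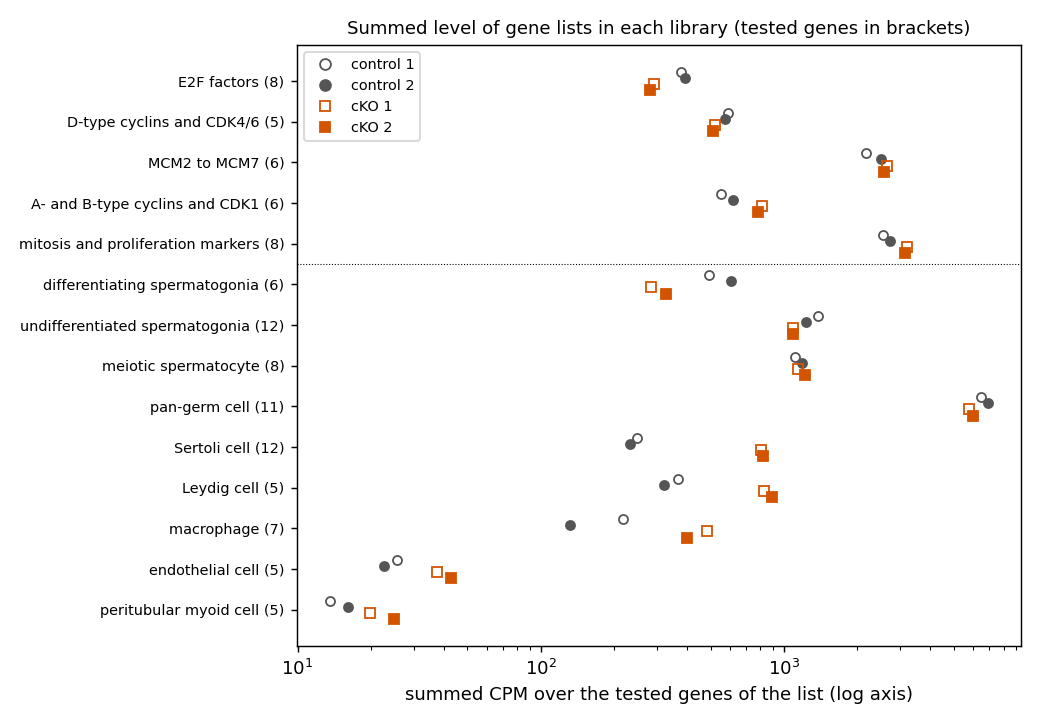
Summed CPM of each gene list in each library on a log axis, with member groups above the dotted line and cell type marker lists below it; circles are controls, squares Cnot3-cKO libraries, and open symbols the libraries numbered 1. The E2F sum lies at 379 and 391 CPM in controls and at 293 and 280 CPM in Cnot3-cKO libraries, while the Sertoli cell sum lies at 249 and 234 against 807 and 820 CPM.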

How the data were processed

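The deposited values were the authors' read counts per gene, whole numbers without normalization, from total RNA of 2 libraries in each group. The submitters' processing notes name STAR, featureCounts and mm10. The counts were fitted over all genes with edgeR 4.0.16 in R 4.3.3: default expression filter (23952 of 54920 genes kept), TMM factors, quasi-likelihood F test of Cnot3-cKO against control without covariates, Benjamini-Hochberg adjustment. Calls used a fold change above 2 with an adjusted p under 0.01, or an adjusted p under 0.05 alone. Standard errors came from the fold change and the F statistic. The biological coefficient of variation was 0.145. Replicates differed by more than counting noise (chi-square per degree of freedom 23.0 in controls, 7.26 in Cnot3-cKO). Levels per kilobase used union exon lengths of GENCODE M21. Values in every library are given for members called by either rule, for the smallest p of a role group without calls, for pathway genes called by the fold rule or with the smallest p of their list, for Cnot3, and for the first and the most abundant gene of a marker list. Other alternatives were DESeq2 1.42.0 and those of the closing section. The procedure was tested on simulated counts with 200 changed genes in each run. At an adjusted p under 0.05 it recovered 58 of 200 changed 1.5-fold, 163 changed 2-fold and 191 changed 4-fold. By the fold rule it recovered 0, 88 and 183. A member that did not pass may therefore still differ by a small amount. The members and lists were chosen with earlier results of these data known. Of the listed markers, Gcna was not found under that symbol and Insl3 did not pass the filter. Genes named beside counts of 5 or fewer outside these rules were chosen after their values were seen. Figures were made with matplotlib 3.10.9 under Python 3.11.15.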

Additional observations from a re-analysis of the deposited data

How the results depend on the processing

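All 22 members with an adjusted p under 0.05 kept their direction under each of 12 alternatives: other scalings (DESeq2's size factors in edgeR, library size only, pan-germ cell genes), all genes kept without a filter, genes averaging 50 reads or more, replicate number as a block, thinning to the smallest library, DESeq2, and leaving out each library. Under the same alternatives 22, 19, 14, 22, 22, 22, 21 and 22 of them still passed, and without control 1, control 2, Cnot3-cKO 1 and Cnot3-cKO 2 it was 22, 19, 10 and 12. Cdc25b alone passed the fold rule as higher in each of them.

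Members higher at an adjusted p under 0.05 (10 as reported) numbered 19 with library size only and 20 with pan-germ cell scaling, and lower members (12) numbered 4 with the latter. Over all tested genes 2659 were higher as reported, 3112 with library size only and 3533 with pan-germ cell scaling, and 2266, 1717 and 1015 were lower. With genes averaging 50 reads or more there were 15 members higher, since Mcm5, Mcm7, Cdt1, Mcm9 and Ccnb3 also passed. Over all genes that fit called 2674 of 16437 tested as higher, against 2659 of 23952 as reported. Pan-germ cell scaling also left 1 member lower by the fold rule (2 as reported) and put the members' median log2 fold change at 0.16. This scaling levels the median of its 11 reference genes between libraries. In the reported fit those genes had a median log2 fold change of -0.142, so the scaling raises the log2 fold changes of all genes. Why the median of the reference genes was below 0 was not tested. At an adjusted p under 0.01 without a fold limit there were 6 higher and 6 lower, as a stricter limit must give fewer. Leaving out each library gave 4 to 19 higher, 5 to 18 lower and 1 to 3 lower by the fold rule, while over all tested genes 2072 to 2799 were higher and 1522 to 3119 lower. With a library left out, 1 group has a lone library, which is assumed to vary like the other group, and fewer samples enter the test.

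Replicate number as a block gave 14 higher and 13 lower members (2993 and 2690 of all tested genes, against 2659 and 2266 as reported), and Ccnd2 (0.27), Mcm5 (0.28), Cdt1 (0.34), Cdc25c (-0.35) and Ccnb3 (0.35) then passed. The deviations of the libraries numbered 1 correlated at 0.12 over 11950 genes, and the labels tie these pairs by nothing but the number.

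Direction changed only in members that did not pass in the reported fit. With pan-germ cell scaling the log2 fold changes were 0.0392 for Cdk9, 0.0314 for Cdkn2b, 0.0561 for Cdk5, 0.013 for Cdc7, 0.071 for Plk1, 0.12 for Mcm4, 0.11 for Cdc45 and 0.0067 for Ccnd3. With library size only Mcm4 was at 0.0405 and Cdc45 at 0.0281, with a mean count of at least 50 Mcm4 was at 0.0063, and after thinning Cdkn2b was at 0.0115. Cdk8 was at -0.0051 with DESeq2's size factors in edgeR, -0.0215 without the expression filter and -0.0195 with DESeq2. Over the fits that leave out a library, log2 fold changes ran from -0.0709 to 0.34 for Pcna, -0.42 to 0.0639 for Ccne2, -0.33 to 0.13 for Cdkn2b, -0.0588 to 0.31 for Cdkn2c, -0.26 to 0.0677 for Cdk5, -0.0792 to 0.0692 for Cdk8, -0.14 to 0.23 for Mcm2, -0.0957 to 0.19 for Cdkn1b, -0.17 to 7e-04 for Plk1, -0.0134 to 0.0707 for Mki67, -0.54 to 0.29 for Cdkn2d, -0.0432 to 0.0875 for Cdk1, -0.26 to 0.54 for Cdk3 and -0.19 to 0.0954 for Cdc45, and the cause was not tested. The lowest count of a member in a library was 38 reads, in Cdk3, and Ccna1 had 47 to 70, so depth limits these 2 most.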
